A study of Arabidopsis thaliana with 18 samples.

Results

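The nuclear photosynthesis genes described here are 50 Arabidopsis thaliana genes that encode Rubisco small subunits and Rubisco activase (5 genes), the light-harvesting proteins of photosystem II (LHCII, 12 genes) and of photosystem I (LHCI, 4 genes), subunits of photosystem I (PSI, 11 genes) and photosystem II (PSII, 10 genes), and proteins of electron transport and the ATP synthase (8 genes). They were chosen by gene identifier and function out of 25016 nuclear genes listed in at least 1 table. No measured value entered the rule, but earlier results of these data were known. All samples were 14-day-old whole seedlings. Plant native elongating transcript sequencing (pNET-seq) was done in 4 conditions with an antibody against RNA polymerase II (Pol II) carrying phosphorylated serine 2 of its C-terminal domain (Ser2P), namely the mutant line xrn3 (allele xrn3-3) and its wild type Col-0, both untreated, and Col-0 treated with the splicing inhibitor herboxidiene or with its solvent DMSO. The treatments lasted 1 h, and the treated seedlings were immersed in buffer under a brief vacuum, which the untreated seedlings were not. Chromatin-bound RNA (CB-RNA-seq) was sequenced for xrn3 and Col-0, and total RNA for Col-0 treated with herboxidiene or DMSO. There were 2 libraries for each pNET-seq and CB-RNA-seq condition and 3 for each treatment of total RNA, but the deposited tables hold 1 pooled value per condition, so no spread between replicates is given, and every error below covers counting only.

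The photosynthetic apparatus sits in the chloroplast, yet most of its proteins are encoded in the nucleus, translated in the cytosol and imported. Light-harvesting proteins bind chlorophyll and pass excitation energy to the photosystems, plastocyanin and ferredoxin carry electrons, and Rubisco fixes carbon dioxide. These genes are among the most strongly transcribed in green tissue, respond to light, and are mostly short with few introns. At the end of such a gene Pol II passes the polyadenylation site (PAS), slows down and is released, and introns are removed while the RNA is still on chromatin. XRN3 is a nuclear exonuclease that degrades RNA from its 5' end, including the RNA that Pol II makes after cleavage at the PAS.

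The pNET-seq tables list only genes that reached 1 TPM, a read count per gene length scaled to the library, and passed the study's test for a 3' end pause. They listed 48 of the 50 genes in xrn3, 48 in Col-0, 44 in herboxidiene and 46 in DMSO. LHCB4.2 (AT3G08940), a minor antenna protein of PSII, was listed in none of the 4 tables, and PSAD2, a PSI subunit at the ferredoxin docking side, only in the 2 treated conditions. CAB1 and LHCB3 were listed only in the untreated conditions, FD2 was missing in DMSO, and PSBR, FNR1 and FNR2 were missing in herboxidiene. Whether a missing gene was too low or had no pause cannot be told apart from these tables. The listed nuclear genes held 25790239 gene body reads in xrn3, 12224996 in Col-0, 3671597 in herboxidiene and 3874349 in DMSO. The XRN3 gene itself had 9931 gene body reads in the libraries labelled xrn3, against 302 in Col-0, so the mutated gene was read more, not less, in the mutant, and xrn3 below stands for the libraries labelled xrn3. The green identity of the seedlings showed in the genes of interest themselves, while 4 of 6 root markers were listed in Col-0 at 12.2 to 80.6 TPM. The labels name no separate cultures behind the libraries.

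In untreated seedlings these genes were transcribed at very high levels. Their median TPM was 648 in xrn3 and 559 in Col-0, where the median of all listed genes was 18.3 and 17.2 TPM. In Col-0 they held 3.75% of all gene body reads and 12 of the 50 highest TPM values, and in xrn3 4.0% and 15. The LHCII genes stood highest, with a median of 1288 TPM in xrn3 and 1198 TPM in Col-0, and LHCI genes followed at 1178 and 1197 TPM. The electron transport genes had the lowest median, 323 TPM in xrn3 and 283 TPM in Col-0. Within each group the genes spread widely. PSII genes ran from 47.8 TPM for PSBS, the sensor of energy-dependent quenching, to 804 TPM for PSBW, a small PSII subunit, in Col-0, and stayed below the lowest LHCII gene, at 822 TPM. The LHCI genes began at 742 TPM, so their range met those of the LHCII and PSII genes.

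The gene with the most gene body reads in Col-0 was taken as the example of each group, and positions are TAIR10 coordinates of the deposited tables. RBCS1A (AT1G67090, chr1:25048158-25049424, 3 exons), the most abundant Rubisco small subunit gene, had 1199.7 TPM in xrn3, 1184 TPM in Col-0, 392 TPM in herboxidiene and 499 TPM in DMSO. CAB1 (AT1G29930, chr1:10478005-10479048, 1 exon), an LHCII protein, had 1509 TPM in xrn3 and 1758 TPM in Col-0 and was not listed in either treated condition. LHCA4 (AT3G47470, chr3:17493372-17495033, 4 exons), an LHCI protein, had 1758 TPM in xrn3, 1716 TPM in Col-0, 211 TPM in herboxidiene and 295 TPM in DMSO. All 3 genes were much lower in the 2 treated conditions than in the 2 untreated ones, or were absent there. PSAF (AT1G31330, chr1:11214824-11216037, 2 exons), the plastocyanin docking subunit of PSI, had 1111 TPM in xrn3, 991 TPM in Col-0, 105 TPM in herboxidiene and 166 TPM in DMSO. PSBP1 (AT1G06680, chr1:2047825-2049418, 4 exons), an extrinsic protein of the oxygen-evolving complex, had 702.5 TPM in xrn3, 668 TPM in Col-0, 84.3 TPM in herboxidiene and 130.3 TPM in DMSO. PETE2 (AT1G20340, chr1:7042429-7043363, 1 exon), a plastocyanin, had 678 TPM in xrn3, 618 TPM in Col-0, 97.5 TPM in herboxidiene and 109 TPM in DMSO. In each of these, both untreated values lay above both treated ones, and the herboxidiene value was the lowest.

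**Figure D1:**
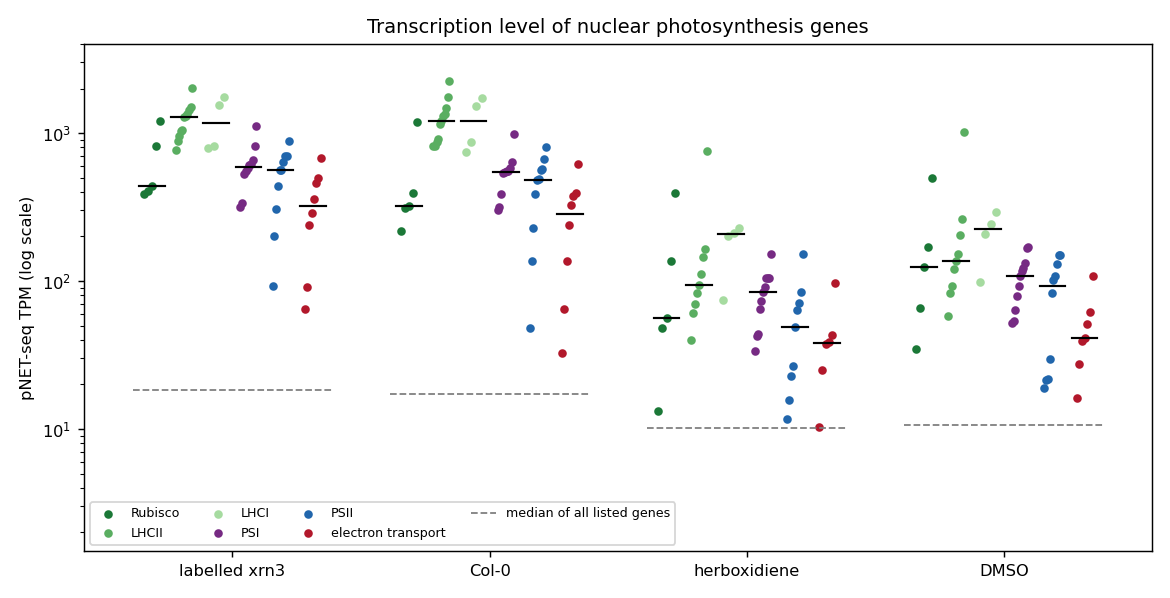
Each point is 1 gene, with pNET-seq TPM on a log axis against the 4 conditions. Black bars are medians of the 6 functional groups and dashed lines the median of all listed genes. The median of the genes shown was 648 TPM in xrn3, 559 TPM in Col-0, 72.1 TPM in herboxidiene and 105 TPM in DMSO.

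The copies of the small gene families cannot be measured with equal certainty, because the authors kept only uniquely mapped reads. More than 10% of the 50-base words of 10 genes recur elsewhere in the nuclear genome, and these are RBCS1B, RBCS2B, RBCS3B, CAB1, CAB2, CAB3, LHB1B1, LHB1B2, LHCB2.1 and LHCB2.2. The share ran from 12.9% in CAB3 to 28.2% in RBCS1B, LHCA2 had 8.54%, and the other 39 genes had none. Levels of these 10 genes may be too low, while changes between conditions of 1 gene share the same mappable sequence.

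The position of the genes among all listed genes was lower in the treated seedlings, already in DMSO. Scaled to the median of all 14429 genes listed in both tables, 38 of 45 genes were at least 2-fold lower in DMSO than in untreated Col-0, where 15.9% of all genes were that much lower, and 0 of 45 were 2-fold higher, where 16.3% of all genes were. The median change was -1.91 on the log2 scale, which is 0.266-fold. This comparison was chosen after its values were seen, has no test, and sets treated against untreated seedlings that also differed in handling, so solvent, immersion and vacuum cannot be told apart. In whole seedlings, fewer green cells and less transcription per cell cannot be told apart either. Root markers were lower as well. Of 6 such genes, 3 were listed in both tables, and PHT1;1, a phosphate transporter, changed by -2.25, the root patterning regulators SCR by -1.05 and SHR by -0.68, while COBL9 was listed only in untreated seedlings. Their part in the result was not tested. By the deposited TPM the median change was -2.50, where all genes had a median of -0.87.

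By groups the LHCII genes had the lowest median change, -2.34 over 9 genes, and the electron transport genes the highest, -1.14 over 7 genes. LHB1B1 (AT2G34430), an LHCII protein, had 57.9 TPM in DMSO and 1153 TPM in Col-0, and its scaled gene body change was -3.86. PSAE1 (AT4G28750), a stromal PSI subunit, had 52.4 TPM in DMSO and 538 TPM in Col-0, with a scaled change of -3.32. PSBQ2 (AT4G05180), an extrinsic protein of PSII, had 29.9 TPM in DMSO and 390.2 TPM in Col-0, with a scaled change of -3.29. LHB1B2 (AT2G34420), the neighbour of LHB1B1 on chromosome 2, had 1023 TPM in DMSO and 2259 TPM in Col-0, and its scaled change of -0.66 was the smallest of the LHCII genes. The shares of the LHCB1 family moved with this. LHB1B1 held 3.98% of the family's gene body reads in DMSO, against 15.1% in Col-0, and LHB1B2 held 66.2% in DMSO, against 27.4% in Col-0, where CAB1 was part of the sum only in Col-0. PETC (AT4G03280), the Rieske protein of the cytochrome b6f complex, changed by 0.16 and FNR1 (AT5G66190), a ferredoxin-NADP reductase, by 0.80, and they were the only 2 genes above 0. The other 43 genes had values from -3.86 to -0.12. The order of the genes was partly kept, with a Spearman's rho of 0.794 between TPM in DMSO and in Col-0 over 45 genes.

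The 300 bases before the start of the genes were searched on both strands for letters known from light-regulated promoters. The G-box core CACGTG stood in 20 of 49 genes (40.8%), against 9.80% of 19930 listed genes, and the I-box GATAAG in 30 (61.2%), against 15.2%. Both stood in 14 genes (28.6%), against 1.82% of all genes. GATAA, which overlaps the I-box, stood in 93.9% of the genes and 60.8% of all genes, and CCAAT in 81.6% and 53.3%. Genes with a G-box had a median DMSO change of -1.92 (20 genes) and those without one of -1.87 (25 genes), a difference far smaller than the spread among genes. The same medians were -1.86 with an I-box (28 genes) and -1.96 without (17 genes). The upstream sequences of PSBQ2 and PETC are shown because they were the only 2 that hold both motifs and overlap no annotated RefSeq gene. They come from the NCBI RefSeq copy of the TAIR10.1 genome at chr4:2673244-2673543 (minus strand) and chr4:1439846-1440145 (plus strand), with G-box and I-box in capitals, read on either strand.
PSBQ2 upstream: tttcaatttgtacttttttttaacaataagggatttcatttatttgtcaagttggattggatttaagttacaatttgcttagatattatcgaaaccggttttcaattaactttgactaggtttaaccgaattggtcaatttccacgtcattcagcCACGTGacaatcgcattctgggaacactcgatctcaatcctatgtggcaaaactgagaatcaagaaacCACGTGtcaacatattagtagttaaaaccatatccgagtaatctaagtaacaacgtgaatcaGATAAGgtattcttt
PETC upstream: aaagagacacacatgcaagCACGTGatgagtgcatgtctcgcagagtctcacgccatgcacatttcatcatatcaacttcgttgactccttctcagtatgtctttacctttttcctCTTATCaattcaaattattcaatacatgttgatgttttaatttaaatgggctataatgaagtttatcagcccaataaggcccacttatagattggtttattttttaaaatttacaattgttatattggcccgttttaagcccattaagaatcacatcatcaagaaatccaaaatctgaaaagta
PSBQ2 carries 2 G-boxes, which begin 145 and 77 bases before the start, and an I-box 15 bases before it. PETC carries its G-box 281 bases before the start and an I-box on the other strand 184 bases before it.

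Herboxidiene was compared with DMSO to see how transcription responded when splicing was blocked. Gene body density of these genes was on the whole slightly lower in herboxidiene. Of 43 genes listed in both tables, 0 were 2-fold higher, where 7.59% of all 11590 genes were, and 4 were 2-fold lower, where 8.17% of all genes were. Yet 40 of the 43 had a value below 0, against 50% of all genes by the scaling, and the median was -0.54. RBCS1B, a Rubisco small subunit gene, had 60 gene body reads in herboxidiene and 134 in DMSO, a change of -1.19. RCA (AT2G39730, chr2:16570746-16573548, 7 exons), Rubisco activase, had 680 reads in herboxidiene and 1507 in DMSO, a change of -1.18 ± 0.07 (counting SE). PSBY (AT1G67740), a small PSII protein, had 179 and 370 reads in herboxidiene and DMSO, a change of -1.08, and PETC had 51 and 114 reads, a change of -1.19. Of these 4 genes, RBCS1B and RCA belong to the Rubisco group. The genes above 0 were PSAL (0.19), LHCA2 (0.12) and PSBQ1 (0.03). By TPM the median was -0.43, where all genes had -0.14.

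In xrn3 the genes were transcribed at nearly the level of Col-0. Of 48 genes, 2 were at least 2-fold higher, where 4.27% of all 17714 genes were, and 0 were 2-fold lower, where 0.813% of all genes were. RCA had 62885 gene body reads in xrn3 and 13235 in Col-0, a scaled change of 1.27 ± 0.01 (counting SE). PSBS had 2229 reads in xrn3 and 560 in Col-0, a scaled change of 1.01 ± 0.07. The median of the 48 genes was 0.24 and 43 were above 0, and the 5 below 0 were CAB1, LHB1B1, LHB1B2, LHCB2.2 and PSAD1. All of these except the PSI subunit PSAD1 are LHCII genes with repeated sequence. The TPM of the 48 genes in xrn3 and Col-0 ran in almost the same order, with a Spearman's rho of 0.977.

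The 3' end pause index (3'PI) is the read density of the 50-bp peak window around the PAS over that of the gene body. These genes had a low 3'PI for paused genes. The median was 2.93 in xrn3, 2.78 in Col-0, 3.81 in herboxidiene and 3.08 in DMSO, where the medians of all listed genes were 15.5, 15.9, 7.37 and 10.6. In Col-0, 46 of 48 genes lay below the median of all genes, and PETC (21.9) and FNR1 (18.8) lay above it. PSBS (14.6) and PSBO2, a manganese-stabilising protein of PSII (10.8), came next. The lowest values were those of LHB1B1 (1.31), LHCB3 (1.44), CAB1 (1.54) and PSAF (1.59). Across the 48 genes, TPM and 3'PI in Col-0 had a Spearman's rho of -0.671, as the least transcribed genes of the list had the highest index. Both measures draw on the same reads.

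The low values of untreated seedlings held in every class of exon number. The classes were not matched for length, and that of 4 or more exons is open. The median gene body in Col-0 was 895 bp for these genes, against 1974 bp over all listed genes. The part of gene length was not tested. Across all listed Col-0 genes the median 3'PI was 4.35 with 1 exon, 7.77 with 2, 10.8 with 3 and 24.2 with 4 or more exons. The photosynthesis genes had medians of 2.46 (14 genes), 2.40 (7 genes), 3.71 (15 genes) and 3.76 (12 genes) in the same classes. They lay below the class median in 14 of 14, 7 of 7, 15 of 15 and 12 of 12 genes. In herboxidiene they did so in 13 of 14, 5 of 7, 10 of 14 and 7 of 9 genes, and in DMSO in 13 of 13, 4 of 7, 11 of 14 and 12 of 12. Spearman's rho between exon number and 3'PI was 0.418 over the 48 genes and 0.526 over all genes. In herboxidiene rho was 0.356 over 44 genes, against 0.136 over all genes, and in DMSO 0.304 over 46 genes, against 0.437 over all genes.

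**Figure D2:**
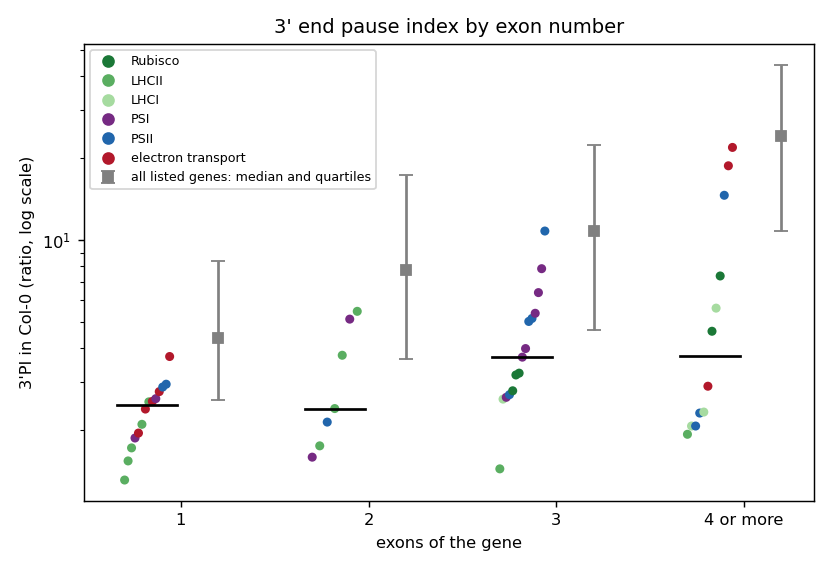
Each point is 1 gene in Col-0, with the 3'PI on a log axis against its number of exons. Black bars are medians of the points and grey squares with bars the median and quartiles of all listed genes. The points of each class had medians of 2.46, 2.40, 3.71 and 3.76, below the grey squares at 4.35, 7.77, 10.8 and 24.2.

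A few genes stood far apart between untreated and treated seedlings, and they were picked out after their values were seen, with no test. LHCB4.1, the sister gene of LHCB4.2, had a 3'PI of 4.54 in xrn3, 5.47 in Col-0, 15.6 in herboxidiene and 12.2 in DMSO. LHCB6, another minor antenna protein of PSII, had 3.07 in xrn3, 3.77 in Col-0, 10.04 in herboxidiene and 8.93 in DMSO. Both were higher in the treated seedlings, while PSBS, with 12.6 in xrn3, 14.6 in Col-0, 7.64 in herboxidiene and 4.97 in DMSO, was higher in the untreated ones. FNR1 had 2.59 in DMSO and 18.8 in Col-0, with 24 window reads in DMSO and 367 in Col-0. Spearman's rho of the 3'PI between DMSO and Col-0 was 0.719 over 45 genes.

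The peak windows of these genes also sat further upstream by signed position. Their centres had a median position of 35.0 bp after the PAS in xrn3, 45.0 bp in Col-0, 34.5 bp in herboxidiene and 32.5 bp in DMSO, where all genes had 95.5, 89.5, 70.5 and 80.5 bp. In Col-0, 13 of 48 windows (27.1%) were centred before the PAS, against 14.2% over all genes. Among these were RBCS1A (-100.5 bp in all 4 conditions), CAB2 (-115.5 bp in all 4 conditions) and PSAG, a PSI subunit (-120.5 bp in all 4 conditions), whose windows lie inside the transcribed gene. The largest distances after the PAS in Col-0 were those of PETE2 (274.5 bp) and PSAH1, a PSI subunit (234.5 bp).

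After herboxidiene the 3'PI of the genes listed in both conditions did not follow the fall seen over all such genes. PSBR, FNR1 and FNR2, missing in herboxidiene, and FD2, missing in DMSO, could not be compared. The compared genes also began lower, with a median 3'PI of 3.30 in DMSO, against 11.4 over all genes compared. The part of this starting level was not tested. Of 43 genes, 7 were higher than in DMSO, where 1.31% of all 11590 genes were higher, and 2 were lower, where 16.6% of all genes were lower, by Fisher's exact test on window and gene body reads with Benjamini-Hochberg adjustment over all genes. Where both conditions had 100 or more reads in the gene body, as for 35 of the 43, 3.07% of all genes were higher and 25.7% lower, with the same 7 and 2 genes called among the 35. The median change was 0.17, against -0.39 over all genes, and 32 of 43 were above 0, against 32.8% of all genes. The test compares pooled libraries and takes no account of differences between libraries.

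PSBO2 (AT3G50820, chr3:18890876-18892426, 3 exons) rose most, to a 3'PI of 11.5 in herboxidiene, against 5.40 in DMSO. Its window held 47 reads in herboxidiene over 102 in the gene body, against 38 over 176 in DMSO, a log2 change of 1.09 ± 0.36 (counting SE, adjusted p = 0.0181, Fisher's exact test). The windows of the 2 conditions lay 5 bp apart just after the gene, on the minus strand at chr3:18890817-18890866 and chr3:18890812-18890861 (TAIR10 coordinates of the deposited table, sequence from RefSeq TAIR10.1). They are shown because they carry the largest rise and overlap no RefSeq gene.
PSBO2 window, herboxidiene: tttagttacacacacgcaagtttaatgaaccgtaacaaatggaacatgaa
PSBO2 window, DMSO: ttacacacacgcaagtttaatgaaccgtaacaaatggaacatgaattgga
The pause therefore stood at the same place in both conditions, with fewer gene body reads and more window reads in herboxidiene.

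PETE2 rose to 3.47 in herboxidiene, against 1.91 in DMSO (log2 change 0.86 ± 0.25, adjusted p = 0.00606, Fisher's exact test), but its window moved by -195 bp, towards the start of the gene. PSBY rose to 3.69 in herboxidiene, against 1.96 in DMSO (0.92 ± 0.33, adjusted p = 0.0445, Fisher's exact test), with a window that moved by -240 bp. In both genes a different stretch was compared in each condition. The Rubisco small subunit genes RBCS2B, with 5.44 in herboxidiene and 3.02 in DMSO (0.85 ± 0.26, adjusted p = 0.0122, Fisher's exact test), and RBCS3B, with 3.57 and 2.31 (0.63 ± 0.19, adjusted p = 0.00952, Fisher's exact test), rose with windows that did not move. RBCS1A, the family's strongest gene, had 3.84 in herboxidiene and 3.30 in DMSO and did not pass the test. The remaining rises were smaller, with LHCA1 (AT3G54890), an LHCI protein, at 3.02 in herboxidiene and 2.21 in DMSO (0.45 ± 0.17, adjusted p = 0.0401, Fisher's exact test), and LHB1B2 at 3.85 and 3.05 (0.34 ± 0.08, adjusted p = 0.000441, Fisher's exact test), whose window moved by 70 bp.

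PSAL (AT4G12800, chr4:7521322-7522670, 2 exons), a PSI subunit at the LHCII docking side, fell to 4.45 in herboxidiene, against 9.29 in DMSO. Its window held 78 reads over 368 in the gene body in herboxidiene, against 140 over 316 in DMSO, and stood at the same place (log2 change -1.06 ± 0.23, adjusted p = 7.6e-05, Fisher's exact test). RCA fell to 7.21 in herboxidiene, against 11.0 in DMSO (-0.61 ± 0.18, adjusted p = 0.00584, Fisher's exact test). Both genes contain introns. PETC, the Rieske protein, had 13.3 in herboxidiene and 6.72 in DMSO, but with 24 and 27 window reads its change of 0.99 ± 0.47 did not pass the test. The 34 genes not called ran from -0.56 in PSAK to 0.99 in PETC.

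Genes with and without introns were read separately because splicing was the target. Of 13 genes with no listed intron, 3 were higher and 0 lower, where 4.83% and 0.358% of all such genes were. Of 30 genes with introns, 4 were higher and 2 lower, where 0.936% and 18.4% of all such genes were. The median change was 0.48 without introns, against 0.27 over all genes of that class, and 0.10 with introns, against -0.50 over all genes of that class. The medians lay further from those of all genes among the genes with introns, and the difference between the classes was not tested. The 3 higher genes without introns were PETE2, PSBY and LHB1B2, whose windows moved by -195, -240 and 70 bp. Each of them thus compared a different stretch in the 2 conditions. The 4 higher genes with introns were PSBO2, RBCS2B, RBCS3B and LHCA1, whose windows moved by at most 5 bp. By groups, 2 of 5 Rubisco genes, 1 of 9 LHCII, 1 of 4 LHCI, 2 of 9 PSII and 1 of 5 electron transport genes were higher, and 0 of 11 PSI genes were. The 3'PI of the 43 genes in herboxidiene and DMSO had a Spearman's rho of 0.872.

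**Figure D3:**
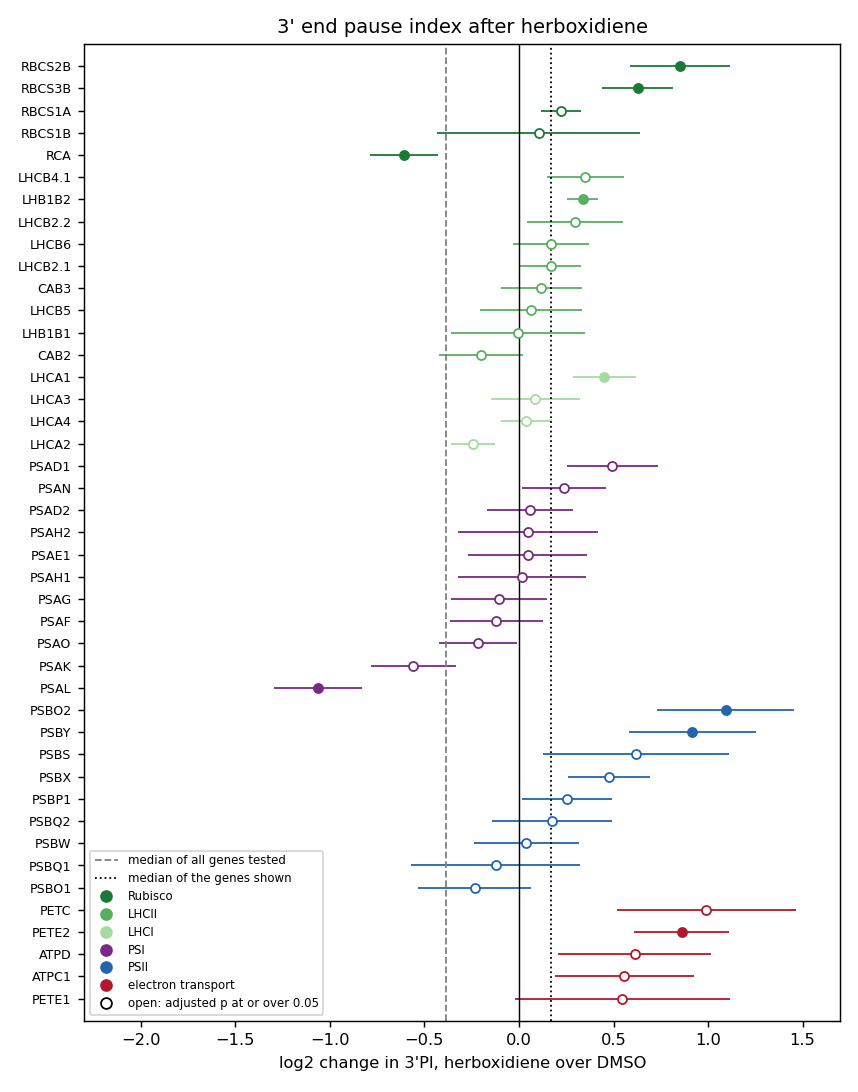
Each row is 1 gene, with the log2 change in 3'PI, herboxidiene over DMSO, and a bar of 1 counting SE. Filled points passed Fisher's exact test after adjustment over all genes. The dotted line at 0.17 is the median of the genes shown and the dashed line at -0.39 the median of all genes tested.

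Between xrn3 and Col-0 the 3'PI differed little in size. Of 48 genes, 7 were higher in xrn3, where 11.3% of all 17714 genes were higher, and 15 were lower, where 3.66% of all genes were lower, by the same test. The median change was -0.04, against 0.16 over all genes, and 21 of 48 were above 0, against 67.2% of all genes. All 48 genes had 100 or more gene body reads in both, and at that depth 14.7% of all genes were higher and 4.2% lower. With a median of 2652.5 window reads per gene in xrn3 and 1131 in Col-0, small differences pass the test, and only RCA changed by more than 1.5-fold. RCA had 4.72 in xrn3 and 7.38 in Col-0 (-0.64 ± 0.04, adjusted p = 5.4e-51, Fisher's exact test). It was also the gene whose gene body density rose most in xrn3.

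The next largest falls were those of PETC, with 15.3 in xrn3 and 21.9 in Col-0 (-0.52 ± 0.13, adjusted p = 0.00166, Fisher's exact test), and FNR1, with 14.1 in xrn3 and 18.8 in Col-0 (-0.42 ± 0.11, adjusted p = 0.00287, Fisher's exact test). PSAN (AT5G64040), the luminal PSI subunit, had 4.1 in xrn3 and 5.38 in Col-0 (-0.39 ± 0.05). LHCA2, an LHCI protein, had 4.34 in xrn3 and 5.62 in Col-0 (-0.37 ± 0.04). These 5 genes all contain introns. The largest rises were those of RBCS3B, with 4.13 in xrn3 and 3.24 in Col-0 (0.35 ± 0.07), and LHB1B1, with 1.66 in xrn3 and 1.31 in Col-0 (0.34 ± 0.05). ATPD, the delta subunit of the ATP synthase (0.32 ± 0.08), FD2, the main leaf ferredoxin (0.30 ± 0.07), and FNR2, a ferredoxin-NADP reductase (0.29 ± 0.10), followed, all with adjusted p under 0.05 by Fisher's exact test. The window of FNR2 moved by 145 bp, and those of the other 4 by at most 5 bp. Of 14 genes without a listed intron 4 were higher and 1 lower, where 7.52% and 1.83% of all such genes were. Of 34 with introns, 3 were higher and 14 lower, where 11.8% and 3.92% of all such genes were. The 3'PI in xrn3 and Col-0 had a Spearman's rho of 0.964 over the 48 genes.

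Splicing was read from the intronic and exonic reads next to both splice sites of an intron. The tables listed 90 introns in 35 of the 50 genes, and 15 genes had no listed intron. The introns were short, with a median of 96 bp against 99 bp over all 121244 listed introns, and 88 of 90 began with GT and ended with AG, while 2 began with GC. The genes gave 1094374 exonic reads in xrn3 CB-RNA, 807119 in Col-0 CB-RNA, 1167917 in herboxidiene total RNA and 1080715 in DMSO total RNA, a median of 5543 to 8394 per intron. Single introns were thus measured far more precisely than the typical intron, which had 113 to 155.

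These introns had a smaller intronic share than most. The median ratio of intronic to exonic reads was 0.0515 in xrn3 and 0.0859 in Col-0 on chromatin, where all introns had 0.203 and 0.269. In total RNA it was 0.0148 in herboxidiene and 0.00370 in DMSO, where all introns had 0.172 and 0.0483. Among 1100 introns with at least 1000 exonic reads in all 4 tables, 82 belonged to these genes. Their medians were 0.0499, 0.0805, 0.0145 and 0.00347 in xrn3, Col-0, herboxidiene and DMSO, against 0.0750, 0.122, 0.0411 and 0.00967 over the 1100. The difference was therefore smaller among introns of similar depth. It remained in all 4 tables, with 74 of 82 introns below the median in DMSO.

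Herboxidiene raised the intronic share at most introns of these genes. Of 90 introns, 73 had a higher ratio than in DMSO, where 57.2% of all 57034 introns were higher, and 1 was lower, where 3.04% were lower, by Fisher's exact test on intronic and exonic reads with Benjamini-Hochberg adjustment. These counts move with depth, since 85.4% of introns with at least 1000 exonic reads in both were higher and 1.22% lower, and 85 of the 90 introns met that limit, with the same 73 and 1 called. The median log2 change was 2.05, against 1.84 over all introns, and at that depth 2.15, against 2.53. All 12 LHCII and all 11 LHCI introns rose, 13 of 14 PSI, 15 of 18 PSII, 10 of 15 Rubisco and 12 of 20 electron transport introns did. Intronic reads stayed a small part of the RNA, as 8 of 90 introns had a ratio over 0.05 in herboxidiene and 2 in DMSO. Total RNA also holds transcripts made before the 1 h treatment, so these ratios do not measure how far splicing of new RNA was blocked.

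LHCA1 intron 3 had 801 intronic reads over 67017 exonic reads in herboxidiene, against 24 over 55967 in DMSO. Intronic reads were 1.18% (95% Clopper-Pearson interval 1.10 to 1.27%) in herboxidiene and 0.0429% (0.0275 to 0.0638%) in DMSO, a log2 change of 4.80 ± 0.30 (adjusted p = 1.2e-170, Fisher's exact test). LHCB4.2 intron 1 had 425 over 7795 reads in herboxidiene, against 22 over 7116 in DMSO, a change of 4.14 ± 0.32 (adjusted p = 3.5e-86, Fisher's exact test). This showed that LHCB4.2, which no pNET-seq table listed, was present in total RNA. PSAE1 intron 2 had 197 over 6111 reads in herboxidiene, against 13 over 5892 in DMSO, a change of 3.87 ± 0.41 (adjusted p = 5.3e-40, Fisher's exact test). PSAK intron 1, in a gene of a PSI antenna subunit, had 57 over 1841 reads in herboxidiene and 0 over 1463 in DMSO, which is at least 15.1-fold higher with a floor of 3 reads per pooled table. RCA intron 5 had 31 over 15727 in herboxidiene and 0 over 14328 in DMSO, at least 9.41-fold higher. The 2 introns with the largest rises among those with intronic reads in both conditions are printed from RefSeq TAIR10.1 with 12 exon bases on each side and the first and last intron bases in capitals, at chr3:20339837-20339951 (minus strand) and chr3:2718206-2718314 (plus strand).
LHCA1 intron 3: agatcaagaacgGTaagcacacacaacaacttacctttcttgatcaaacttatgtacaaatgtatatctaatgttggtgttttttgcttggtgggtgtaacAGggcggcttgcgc
LHCB4.2 intron 1: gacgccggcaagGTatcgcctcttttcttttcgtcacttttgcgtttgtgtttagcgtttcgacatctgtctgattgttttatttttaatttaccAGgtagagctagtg

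**Figure D4:**
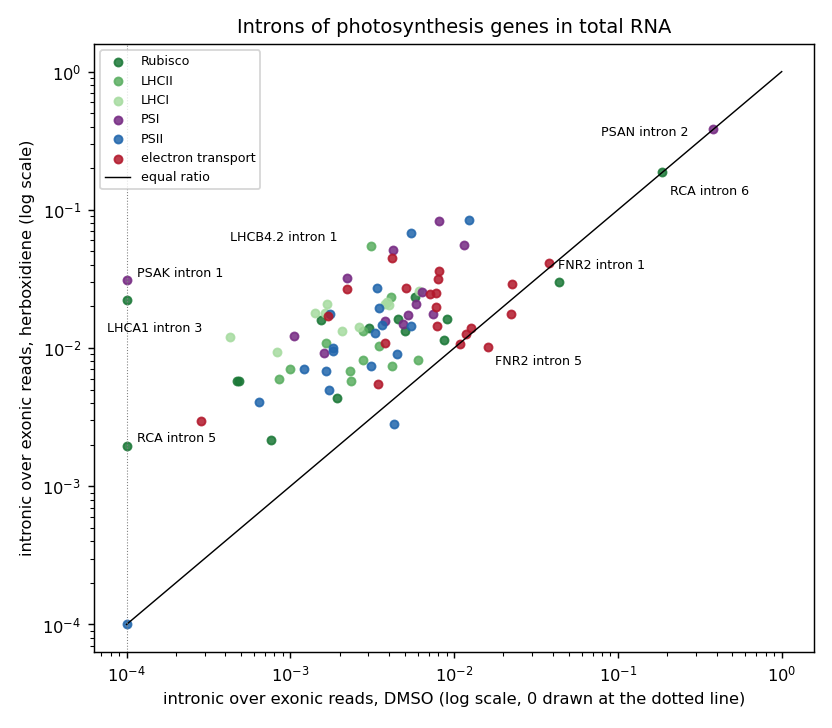
Each point is 1 intron in total RNA, with the ratio of intronic to exonic reads in herboxidiene against that in DMSO, both on log axes, coloured by functional group. The line marks equal ratios, 4 introns without an intronic read in DMSO stand at the dotted line, and 73 of 90 introns passed the test above the line.

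A smaller set of introns showed no detected rise. The 16 introns not called were 6 of the 8 introns of FNR2, the 3 introns of PSBS, the 3 of RBCS1B, and RCA intron 6, PSAN intron 2, PETC intron 1 and RBCS2B intron 1. The only lower intron was FNR2 (AT1G20020) intron 5 at chr1:6944047-6944163, with 42 over 4127 reads in herboxidiene and 73 over 4520 in DMSO (-0.67 ± 0.28, adjusted p = 0.0323, Fisher's exact test), and the direction turned to 0.13 with the reads at its 5' splice site alone. Summed over its introns, FNR2 had a ratio of 0.0153 in herboxidiene and 0.0147 in DMSO, a log2 change of 0.06 ± 0.09. Its paralogue FNR1 had 0.0283 in herboxidiene and 0.00638 in DMSO, a log2 change of 2.15 ± 0.13, and all 8 of its introns rose. The pair encodes the leaf forms of ferredoxin-NADP reductase and differed in this response by more than its counting errors. The introns of PSBS had few intronic reads in either condition, with 24 over 10081 in herboxidiene and 16 over 9413 in DMSO in sum, a log2 change of 0.49 ± 0.47 that did not pass the test (adjusted p = 0.368, Fisher's exact test). At the 5' splice site of PSBS intron 3 alone, 15 over 1657 reads in herboxidiene against 2 over 1490 in DMSO did pass it (2.75 ± 1.09, adjusted p = 0.0082, Fisher's exact test). The introns of RBCS1B had 11 over 464 reads in herboxidiene and 10 over 443 in DMSO in sum, a change of 0.07 ± 0.64.

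RCA intron 6 and PSAN intron 2 were the only introns with a ratio over 0.1 in herboxidiene or DMSO. RCA intron 6 had 3623 over 19156 reads in herboxidiene and 3305 over 17662 in DMSO, which is 15.9% intronic (15.4 to 16.4%) and 15.8% (15.3 to 16.3%), a log2 change of 0.02 ± 0.04. PSAN intron 2 had 6155 over 15937 reads in herboxidiene and 4704 over 12346 in DMSO, which is 27.9% (27.3 to 28.5%) and 27.6% (26.9 to 28.3%), a change of 0.02 ± 0.03. In both, the intronic reads lay at 1 end. At RCA intron 6 the 5' splice site had 3584 over 9772 reads in herboxidiene and 3260 over 8962 in DMSO, and the 3' splice site 39 over 9384 and 45 over 8700. At PSAN intron 2 the 3' splice site had 6062 over 8579 reads in herboxidiene and 4687 over 6662 in DMSO, and the 5' splice site 93 over 7358 and 17 over 5684. The annotation gives a second 5' splice site 11 bases downstream in RCA intron 6, and a second 3' splice site 4 bases upstream in PSAN intron 2. It also gives other sites, 3 to 21 bases away, for 6 further introns of these genes, whose ratios ran from 0.00747 to 0.0681 in herboxidiene and from 0.00153 to 0.00782 in DMSO. At RCA intron 6 and PSAN intron 2, reads of transcripts that use the other annotated site would count as intronic at that end. Reads across the splice junctions were not examined, so the use of that site was not tested. In Arabidopsis such alternative splicing of RCA is known to give a longer and a shorter activase. At the 5' splice site of PSAN intron 2, away from the alternative site, the change was 2.08 ± 0.38 and passed the test (adjusted p = 5.1e-09, Fisher's exact test), while at the 3' splice site of RCA intron 6 it was -0.32 ± 0.32 and did not.
RCA intron 6: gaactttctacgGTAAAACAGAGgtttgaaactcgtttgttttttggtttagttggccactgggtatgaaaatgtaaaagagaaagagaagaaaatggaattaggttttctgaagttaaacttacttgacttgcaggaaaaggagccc
PSAN intron 2: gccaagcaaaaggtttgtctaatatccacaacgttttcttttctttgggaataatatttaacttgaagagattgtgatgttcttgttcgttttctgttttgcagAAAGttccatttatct
Capitals mark the bases between the annotated splice sites, at chr2:16571055-16571202 and chr5:25628798-25628917, both on the minus strand and with 12 exon bases on each side.

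**Figure D5:**
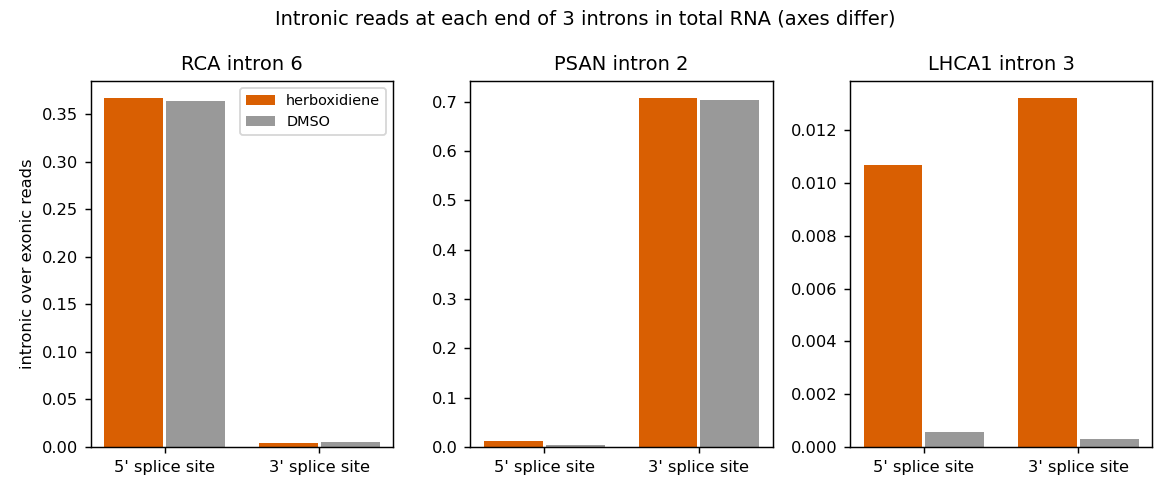
Bars give the ratio of intronic to exonic reads at the 5' and the 3' splice site of 3 introns in herboxidiene (orange) and DMSO (grey), on axes that start at 0 and differ between panels. RCA intron 6 was high at its 5' splice site and PSAN intron 2 at its 3' splice site in both conditions, while LHCA1 intron 3 rose at both sites in herboxidiene.

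On chromatin most introns of these genes had a smaller intronic share in xrn3 than in Col-0. Of 90 introns, 75 had a lower ratio in xrn3, where 19.8% of all 94500 introns were lower, and 1 was higher, where 1.92% were higher, by the same test. Among introns with at least 1000 exonic reads in both, 61.2% of all were lower and 0.908% higher, and 72 of the 83 such introns of these genes were lower. The median change was -0.69, against -0.36 over all introns, and 86 of 90 were below 0. With at least 1000 exonic reads in both, the median was -0.70, against -0.50 over all introns of that depth. PSBO2 intron 2 fell most, with 226 over 3605 reads in xrn3 and 412 over 2286 in Col-0 (-1.52 ± 0.13, adjusted p = 2.9e-32, Fisher's exact test). LHCB2.1 intron 1, in an LHCII gene, had 1219 over 24519 in xrn3 and 2031 over 16788 in Col-0 (-1.28 ± 0.05), and PSBS intron 2 had 42 over 2830 in xrn3 and 76 over 2116 in Col-0 (-1.28 ± 0.28). RCA intron 2 fell by 1.25 and RBCS3B intron 2 by 1.18 on the log2 scale. All 12 LHCII and all 11 LHCI introns were lower, as were 15 of 20 electron transport introns.

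The 1 rise was FNR1 intron 3, with 139 over 3336 reads in xrn3 and 71 over 2661 in Col-0 (0.64 ± 0.21, adjusted p = 0.0157, Fisher's exact test). FNR2 intron 1 had the highest ratio of these introns in Col-0, with 0.448 in xrn3 and 0.642 in Col-0, yet 0.0412 in herboxidiene and 0.0377 in DMSO in total RNA. RCA intron 6 had 2164 over 5582 reads at its 5' splice site in xrn3 and 1328 over 3218 in Col-0, which did not pass the test (adjusted p = 0.425, Fisher's exact test). At its 3' splice site it had 113 over 4191 in xrn3 and 152 over 2375 in Col-0, close to the fall of RCA intron 2 (-1.25 ± 0.18, adjusted p = 4.1e-09, Fisher's exact test). PSAN intron 2 had a ratio of 0.525 in xrn3 and 0.527 in Col-0. RCA intron 6 at its 5' splice site and PSAN intron 2 thus had a high ratio in all 4 tables.

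Pausing and splicing were then set side by side within these genes. Over the 30 genes with values for both, the change in 3'PI and the change in the summed intron ratio between herboxidiene and DMSO had a Spearman's rho of -0.347. Between xrn3 and Col-0 it was -0.212 over 34 genes. Both are descriptions across genes that share libraries. PSAL had the largest change in the summed intron ratio of the 30 genes, 3.60, and a 3'PI change of -1.06, a fall that passed the test. LHCA1, whose intron 3 rose most among introns read in both conditions, had a summed change of 3.50 and a 3'PI change of 0.45. PSAE1, with a summed change of 3.05, had a 3'PI of 10.6 in herboxidiene and 10.3 in DMSO, which did not pass the test.

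Other nuclear genes of the chloroplast were counted from lists of 18 Calvin cycle genes, 23 chlorophyll synthesis genes and 5 regulators of photosynthesis genes. In herboxidiene against DMSO the 3'PI was higher in 1 and lower in 1 of 16 Calvin cycle genes, higher in 0 and lower in 5 of 20 chlorophyll synthesis genes, and changed in 0 of 4 regulators. Their median changes were -0.23, -0.12 and -0.48, below the 0.17 of the photosynthesis genes and, for the first 2 lists, above the -0.39 of all genes. Introns were higher in herboxidiene at 41 of 83, 79 of 113 and 11 of 13, and lower at 2, 1 and 0, where 57.2% of all introns were higher and 3.04% lower. Among all introns with at least 1000 exonic reads in both, 85.4% were higher and 1.22% lower. The lists were not matched for depth, so their order against all introns cannot be read from these counts. In DMSO against untreated Col-0, 4 of 17 Calvin cycle genes and 13 of 20 chlorophyll synthesis genes were at least 2-fold lower, with medians of -0.61 and -1.24, and 2 of 5 regulators were, with a median of -0.99, where 15.9% of all genes were. HEMD, an enzyme of tetrapyrrole synthesis, was the 1 gene of these lists that was 2-fold higher, by 2.82 on the log2 scale. In xrn3 against Col-0 the introns were lower at 56 of 83 Calvin cycle and 54 of 117 chlorophyll synthesis introns and 5 of 17 introns of the regulators, where 19.8% of all introns were lower, and 61.2% of those with at least 1000 exonic reads in both.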

How the data were processed

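Of the 9 deposited tables, 8 were used. The authors trimmed pNET-seq reads with fastp and RNA-seq reads with Trimmomatic 0.39, mapped them to TAIR10 with HISAT2 2.2.0, kept uniquely mapped reads with SAMtools, and removed duplicates of pNET-seq by molecular identifiers. The deposited gene body, window, intronic and exonic reads are whole-number counts, not normalised. The deposited TPM was computed by the authors per gene extended downstream. The 3'PI is a deposited ratio, taken by the authors over the densest 50-bp window in the stretch of 150 bp upstream and 300 bp downstream of the PAS, with a gene body that ends 301 bp upstream. Other deposited columns hold p-values and q-values of the authors' own pause test and were not used. The intron tables give the intronic and exonic counts of each splice site as deposited strings, summed here over both sites. A further Col-0 intron table whose name gives no assay was not used.

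Samples were grouped by genotype and treatment as labelled. Window against gene body reads, and intronic against exonic reads, were compared by two-sided Fisher's exact tests with Benjamini-Hochberg adjustment over all nuclear genes or introns (threshold 0.05). Where 1 of the 4 counts was 0, 0.5 was added to all 4 for the log2 ratio. Gene body reads were scaled so that the median log2 ratio of all genes was 0, and called at 2-fold with no test. No test across replicates was possible. Precision follows the counts given, and intervals cover counting error only. Motifs and introns were read from RefSeq TAIR10.1, where 98.8% of listed introns had GT and AG ends. The tests were tested on simulated data. Alternatives were a threshold of 0.01, 1.5-fold, 20 reads, single splice sites, sums per gene, windows within 25 bp and other scalings. Full values are given for the 5 largest called rises and falls per tested comparison and the gene with most Col-0 reads per group. The members and lists were chosen with earlier results of these data known. Tests used scipy 1.17.1, tables pandas 2.3.3 with numpy 2.4.6, and figures matplotlib 3.10.9, in Python 3.11.15.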

Additional observations from a re-analysis of the deposited data

How the results depend on the processing

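No paired analysis was possible because the tables pool the libraries of each condition, and for the same reason no library could be left out. Of the alternative counts and medians, 103 stayed within the limits set for them and 34 moved, and the cause of these moves was not tested beyond what each setting does by its own construction. For the 3'PI of herboxidiene against DMSO, a threshold of 0.01 left 5 genes called and 3 higher, windows within 25 bp left 4 higher, and leaving out genes with repeated sequence (chosen after seeing the data) left 4 higher. For xrn3 against Col-0, also asking for a 1.5-fold change left 1 gene called, 0 higher and 1 lower, which was RCA, and leaving out genes with repeated sequence left 3 higher. For introns after herboxidiene, a threshold of 0.01 and the 5' splice site alone each left 0 lower, and FNR2 intron 5 turned to 0.13 at the 5' site alone. Summed per gene, 32 of 35 genes were called, 32 higher and 0 lower. For introns in xrn3, a threshold of 0.01 and each splice site alone left 0 higher, and summed per gene 32 were called, 0 higher and 32 lower. Gene body calls in herboxidiene numbered 8, all lower, with scaling to total reads, 2 by TPM, 7 with at least 20 reads and 20 at 1.5-fold, all lower. In xrn3 they numbered 1 by total reads, 1 by TPM and 5 at 1.5-fold, all higher. In DMSO against untreated Col-0 a limit of 1.5-fold, chosen after seeing the data, gave 1 higher gene. Of the values of single genes and introns, 365 kept their call or lack of one, 51 lost the call and 1 gained it (PSAN intron 2 at the 5' site, 2.08). A further 1, with a call, reversed its direction. Values without a call could change direction and still count as kept. Depth limits the 3'PI most in the treated seedlings, with a median of 73 window reads per gene in herboxidiene and 97 in DMSO, against 2652.5 in xrn3 and 1131 in Col-0.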
